A study of Mus musculus with 21 samples.

Results

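The comparison described here sets 3 libraries of mouse lung fibroblasts given TGFb1 together with IL1b against 3 given TGFb1 together with TNF. These are 6 of the 21 RNA-seq libraries of the series, chosen by their treatment labels alone. The question is which genes part the 2 inflammatory cytokines when TGFb1 is present in both groups. The cells carry Ly6C and Sca-1 on their surface, and the 3 libraries given TGFb1 by itself are used below as the shared base of both groups. The remaining 12 libraries (DMSO, CHIR, TGFb1 + CHIR and TGFb1 + DMSO) enter the estimate of the spread between replicates. The sources used here do not give the age, sex or strain of the mice, the doses, the time of exposure, the order of addition or whether replicates were separate cultures, so p-values measure the spread between these libraries, which may be technical. The 6 libraries held 25609647 to 28279598 counts each. Levels are given as CPM, the counts of a gene scaled to a common library size with TMM factors. A value after a gene is its log2 fold change ± SE, positive where TGFb1 + IL1b is higher. Adjusted p-values are from edgeR's quasi-likelihood test (n = 3 per group, Benjamini-Hochberg over 16197 genes, threshold 0.05).

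IL1b and TNF are secreted by activated macrophages and other cells and meet fibroblasts in inflamed and scarring lung. IL1b binds IL1R1 with its partner IL1RAP and signals through MYD88, IRAK kinases and TRAF6, while TNF binds TNFR1 and TNFR2 (encoded by Tnfrsf1a and Tnfrsf1b) and signals through TRADD, RIPK1 and TRAF2. Both routes converge on the kinase TAK1 (Map3k7), on NF-kB and on the MAP kinases that feed AP-1. TGFb1 acts through SMAD proteins and drives fibroblasts to make collagen and contractile proteins.

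Before the comparison, the libraries were checked against their labels. The 8 fibroblast markers summed to 60600 to 62170 CPM with IL1b, 24680 to 25800 with TNF and 64820 to 67180 with TGFb1 alone, most of it collagen. Lum was under 1 CPM in these 9 libraries. Markers of other cells were low and differed between the groups. The 12 immune markers summed to 6.01 to 6.86 CPM with IL1b and 2.49 to 3.08 with TNF, with 7 and 8 of them at 0, among them Ptprc, Adgre1 and Cd3e. The 10 epithelial markers summed to 3.72 to 5.76 and 1.86 to 2.17 CPM (4 and 5 at 0), with Krt19 highest. Krt8 and Krt18 are among those at 0. Both may share reads with near-identical copies, and the rule for counting such reads is unknown, so their zeros do not tell whether they are expressed. The 8 endothelial markers summed to 5.04 to 6.63 and 13.9 to 14.3 CPM, with Kdr highest and Tie1 and Cldn5 at 0 in both. The 7 mesothelial markers, nearly all Wt1, summed to 27.2 to 28.3 and 14.9 to 16.8 CPM (5 at 0 in both). The 7 mural markers, which include Pdgfrb and Cspg4, summed to 670 to 706 and 502 to 528 CPM, and to 1102 to 1151 with TGFb1 alone. The highest of them was Pdgfrb with IL1b (mean 509.9 CPM) and Cspg4 with TNF (mean 272.4 CPM), so the sums join different members. The part of these differences in the results below was not tested. Replicate 1 of each group stood above its fellows in interferon-stimulated and early response genes, with values given beside those lists. Mitochondrial genes took 0.348% to 0.429% of the counts with IL1b and 0.422% to 0.490% with TNF.

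Of the 16197 genes tested, 7706 (47.6%) passed the threshold between the cytokines, 4008 (24.7%) higher with IL1b and 3698 (22.8%) higher with TNF. The list counts below are to be read beside these shares of all genes. The lists were chosen with earlier results of these data known, so the counts describe the lists and do not test them. Which side was larger depended on the processing: with RLE in place of TMM factors, 3775 were higher with IL1b and 3948 with TNF. Changes of at least 2-fold (9.11%) were less even, with 1116 genes (6.89%) higher with IL1b and 359 (2.22%) higher with TNF. The median log2 fold change of all genes tested was 0.013, and its median size 0.32. Against TGFb1 alone, IL1b changed 5600 genes (34.6%) and TNF 9161 (56.6%). At 2-fold or more (5.21% with IL1b, 16.2% with TNF), 537 genes (3.32%) were higher and 307 (1.9%) lower with IL1b, and 1085 (6.7%) were higher and 1541 (9.51%) lower with TNF. The 3 libraries of each group did not overlap in 8918 genes (55.1%). The comparisons with TGFb1 share the 3 TGFb1 libraries, so their values are set side by side below for each gene and are not independent of each other.

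**Figure D1:**
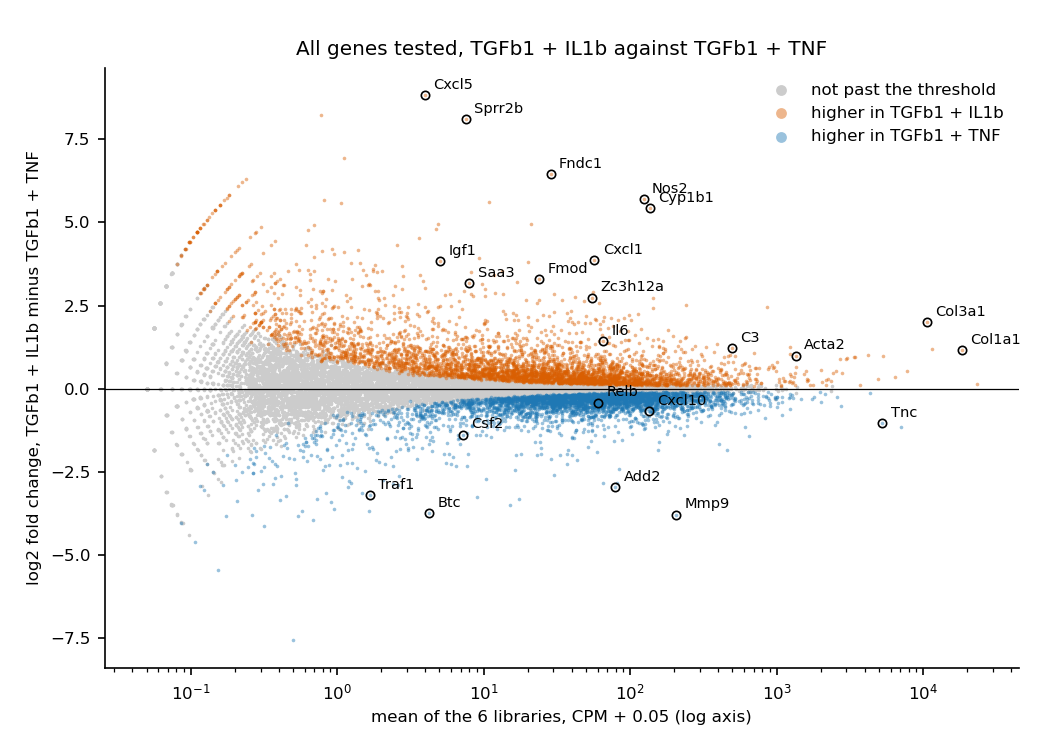
Each point is 1 of the 16197 genes tested. The x axis is the mean level in the 6 libraries in CPM plus 0.05 (log axis) and the y axis the log2 fold change of TGFb1 + IL1b minus TGFb1 + TNF. Coloured points passed the threshold, 4008 higher with IL1b and 3698 higher with TNF. Cxcl5, Sprr2b and Nos2 lie far above 0, Mmp9 and Btc far below it, and the collagen genes at the right edge lie above it.

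Some genes higher with IL1b and some higher with TNF held the same motif letters before their start sites. The base letters there are shown first for 6 inflammatory and protease genes. They come from a list of 30 individually chosen genes, of which 23 passed the test at a mean of 4 CPM or more and 17 of those are in the promoter table. Of the 4 highest with IL1b and the 4 highest with TNF among these 17, the 6 that hold kappa B or AP-1 letters are printed. Each line gives the 250 bases before the start from RefSeq (GRCm38.p6), 5′ to 3′ on the gene's strand. Capitals mark matches, on either strand, to the kappa B letters bound by NF-kB (GGGA, any 4 bases, then CC), the interferon response type letters (GAAA, any 2 bases, then GAAA), the GAS type letters TTCNNNGAA bound by STAT proteins, and the AP-1 letters TGANTCA.
Cxcl1, chr5:90890995-90891244, + strand: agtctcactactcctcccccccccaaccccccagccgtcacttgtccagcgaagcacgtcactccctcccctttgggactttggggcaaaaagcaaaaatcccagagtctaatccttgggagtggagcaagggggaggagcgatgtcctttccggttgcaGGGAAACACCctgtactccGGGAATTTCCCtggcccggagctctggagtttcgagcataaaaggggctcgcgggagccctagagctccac
Il6, chr5:30012864-30013113, + strand: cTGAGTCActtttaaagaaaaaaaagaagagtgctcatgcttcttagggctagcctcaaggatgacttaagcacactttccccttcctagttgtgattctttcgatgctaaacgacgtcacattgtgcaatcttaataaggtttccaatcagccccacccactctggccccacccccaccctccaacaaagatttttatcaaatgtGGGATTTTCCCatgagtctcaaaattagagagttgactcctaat
Mmp3, chr9:7445572-7445821, + strand: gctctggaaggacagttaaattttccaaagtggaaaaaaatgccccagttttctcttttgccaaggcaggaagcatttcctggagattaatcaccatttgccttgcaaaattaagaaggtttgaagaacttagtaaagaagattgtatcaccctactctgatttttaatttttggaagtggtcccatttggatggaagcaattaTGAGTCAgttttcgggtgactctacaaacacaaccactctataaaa
Mmp13, chr9:7272264-7272513, + strand: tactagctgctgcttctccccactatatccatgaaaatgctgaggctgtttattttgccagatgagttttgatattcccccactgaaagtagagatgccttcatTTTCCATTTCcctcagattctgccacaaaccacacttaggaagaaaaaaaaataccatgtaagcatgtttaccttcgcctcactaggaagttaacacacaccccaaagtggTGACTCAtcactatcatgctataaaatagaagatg
Cxcl10, chr5:92348890-92349139, - strand: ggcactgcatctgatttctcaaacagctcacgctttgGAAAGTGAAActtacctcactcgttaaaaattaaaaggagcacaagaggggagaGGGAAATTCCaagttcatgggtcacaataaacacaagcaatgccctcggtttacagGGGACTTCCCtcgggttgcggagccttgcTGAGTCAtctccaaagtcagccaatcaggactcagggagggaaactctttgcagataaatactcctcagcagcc
Birc3, chr9:7873171-7873420, - strand: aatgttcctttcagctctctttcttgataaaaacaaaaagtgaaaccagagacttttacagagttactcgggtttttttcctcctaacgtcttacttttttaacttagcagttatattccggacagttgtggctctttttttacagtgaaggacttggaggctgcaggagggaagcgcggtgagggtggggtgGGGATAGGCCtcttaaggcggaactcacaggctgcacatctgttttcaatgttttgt

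Kappa B letters stand 90 to 81 and 71 to 61 bases before the start of Cxcl1 and 44 to 34 before that of Il6. They stand 159 to 150 and 103 to 94 before that of Cxcl10 and 57 to 48 before that of Birc3. Cxcl1 and Il6 were higher with IL1b, and Cxcl10 and Birc3 were higher with TNF. AP-1 letters stand 46 to 40 bases before the start of Mmp3 and 35 to 29 before that of Mmp13. These metalloproteinase genes lie in one cluster on chromosome 9, and Mmp3 was higher with IL1b and Mmp13 with TNF. AP-1 letters also stand 249 to 243 bases before the start of Il6 and 74 to 68 before that of Cxcl10. Interferon response type letters stand 146 to 137 bases before the start of Mmp13 and 213 to 204 before that of Cxcl10. Of the other 2 genes, Saa3 (higher with IL1b) holds the interferon response type letters alone in its window, and Csf2 (higher with TNF) none of the 4 motifs. Kappa B letters were found in 26.3% of all 10822 tested genes with a promoter in the table, in 30.7% of the 745 such genes at least 2-fold higher with IL1b and in 29.0% of the 238 at least 2-fold higher with TNF. AP-1 letters were found in 5.74%, 8.72% and 14.7% of the same sets, interferon response type letters in 3.22%, 3.89% and 3.78%, and GAS type letters in 7.12%, 6.98% and 6.3%. Of all 32851 promoters of the table, 17.6% hold kappa B letters and 6.75% AP-1 letters. The shares per gene count a match at any of its start sites, and a match is a description, not a shown site of binding.

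Genes highest with IL1b included inflammatory genes and genes that TNF lowered. Nos2, the inducible nitric oxide synthase (ENSMUSG00000020826 on chromosome 11 from 78920787 to 78960254, GRCm38), was measured at 237, 254 and 236 CPM with IL1b, 5.39, 4.8 and 3.8 with TNF and 1.46, 0.714 and 1.49 with TGFb1 alone. It was 51.8-fold higher with IL1b than with TNF (5.70 ± 0.12, adjusted p = 4.96e-24). Cxcl1, a neutrophil-attracting chemokine (ENSMUSG00000029380 on chromosome 5 from 90891241 to 90893115), was measured at 128, 94.8 and 97.2 CPM with IL1b and 7.99, 6.76 and 7.34 with TNF, 14.5-fold apart (3.86 ± 0.15). Both genes were raised over TGFb1 by each cytokine: Nos2 203-fold by IL1b and 3.92-fold by TNF, and Cxcl1 124-fold and 8.55-fold. Sprr2b, a small proline-rich protein of the cornified envelope with close relatives beside it, was at 14.7, 14.5 and 15.5 CPM with IL1b and 0, 0.107 and 0.038 with TNF, below the 4.49, 2.46 and 3.19 of TGFb1 alone.

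For 13 of the 15 genes highest with IL1b, the TNF libraries lay below those of TGFb1 alone, and for several the IL1b libraries lay between the other two groups. Cyp1b1, a cytochrome P450 (ENSMUSG00000024087 on chromosome 17 from 79701537 to 79715061), was measured at 278, 248 and 277 CPM with IL1b, 5.69, 5.76 and 7.26 with TNF and 345, 329.7 and 335 with TGFb1 alone. Its difference was 43-fold (5.42 ± 0.065, adjusted p = 1.21e-49). Fndc1, a fibronectin domain protein, showed 56.6 ± 5.91 CPM with IL1b and 0.638 ± 0.129 with TNF (mean ± SD) against 102 ± 7.92 with TGFb1. Ccn5, a CCN family matricellular protein, was at 21.2 ± 1.58, 0.427 ± 0.335 and 79.9 ± 3.97 CPM in the same order. The growth factor Igf1 was at 9.24, 9.61 and 9.12 CPM with IL1b and 0.335, 0.818 and 0.798 with TNF, and the collagen-binding proteoglycan Fmod at 43.5 ± 2.9 and 4.43 ± 0.89. Both stood higher with TGFb1 alone, at 23 ± 1.02 and 124 ± 9.99 CPM. Serpinb1a, Asic3, Tnn, Rgs4, Aoc3, Npy1r and Col8a2 complete the 15, with log2 fold changes from 3.41 for Col8a2 to 4.94 for Serpinb1a. Of the 15, 7 were higher and 8 lower with IL1b than with TGFb1 alone, and 2 were higher and 13 lower with TNF. Of all genes, 17.2% were higher and 17.4% lower with IL1b, and 27.7% higher and 28.8% lower with TNF. The 15 were picked by their difference from the same TNF libraries, which favours low levels with TNF. These counts therefore describe the 15 only.

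Genes highest with TNF were raised by TNF over TGFb1, and 13 of the 15 also by IL1b. Mmp9, gelatinase B, which cleaves denatured collagen and basement membrane collagen (ENSMUSG00000017737 on chromosome 2 from 164940780 to 164955850), was measured at 409, 361 and 379 CPM with TNF, 31.2, 25.1 and 27.1 with IL1b and 8.56, 7.1 and 9.48 with TGFb1 alone. The difference between the cytokines was 13.8-fold (-3.78 ± 0.072, adjusted p = 5.48e-39). The EGF receptor ligands Btc and Areg were at 8.37, 7.54 and 7.41 and 16.3, 12.4 and 9.85 CPM with TNF and 0.589, 0.36 and 0.79 and 3.31, 1.94 and 2.48 with IL1b. Hmga2 and Hmga1, chromatin proteins of growing and transformed cells, were at 115 ± 12.2 and 52 ± 2.47 CPM with TNF and 16 ± 1.07 and 8.63 ± 0.468 with IL1b. Hmga1 has many near-identical copies in the genome, and the rule for counting shared reads is unknown. Alcam, an adhesion molecule that binds CD6 on T cells, was at 161, 135 and 129 CPM with TNF and 26.9, 26.2 and 26.7 with IL1b (-2.41 ± 0.089). Cd40, a costimulatory receptor of the TNF receptor superfamily, was at 11.1, 10.9 and 10.4 and 1.91, 2.27 and 2.26 CPM (-2.33 ± 0.24). F2rl1, the protease-activated receptor PAR2, was at 36.5, 28.3 and 30.5 CPM with TNF and 3.2, 3.56 and 2.73 with IL1b, below the 5.45, 3.89 and 4.63 of TGFb1 alone. The other members of the 15 were Ndst3, Dmrta1, Add2, Tnnt2, Pkp1, Il18rap and Sdcbp2, with log2 fold changes from -3.50 for Ndst3 to -2.26 for Sdcbp2. Against TGFb1 alone, all 15 were higher with TNF, and with IL1b 13 were higher, F2rl1 was lower and Il18rap did not pass the test (adjusted p = 0.25). Of all genes, 27.7% were higher with TNF and 17.2% with IL1b. These 15 too were picked on the same TNF libraries, which favours high levels with TNF, so the counts describe the 15 only.

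**Figure D2:**
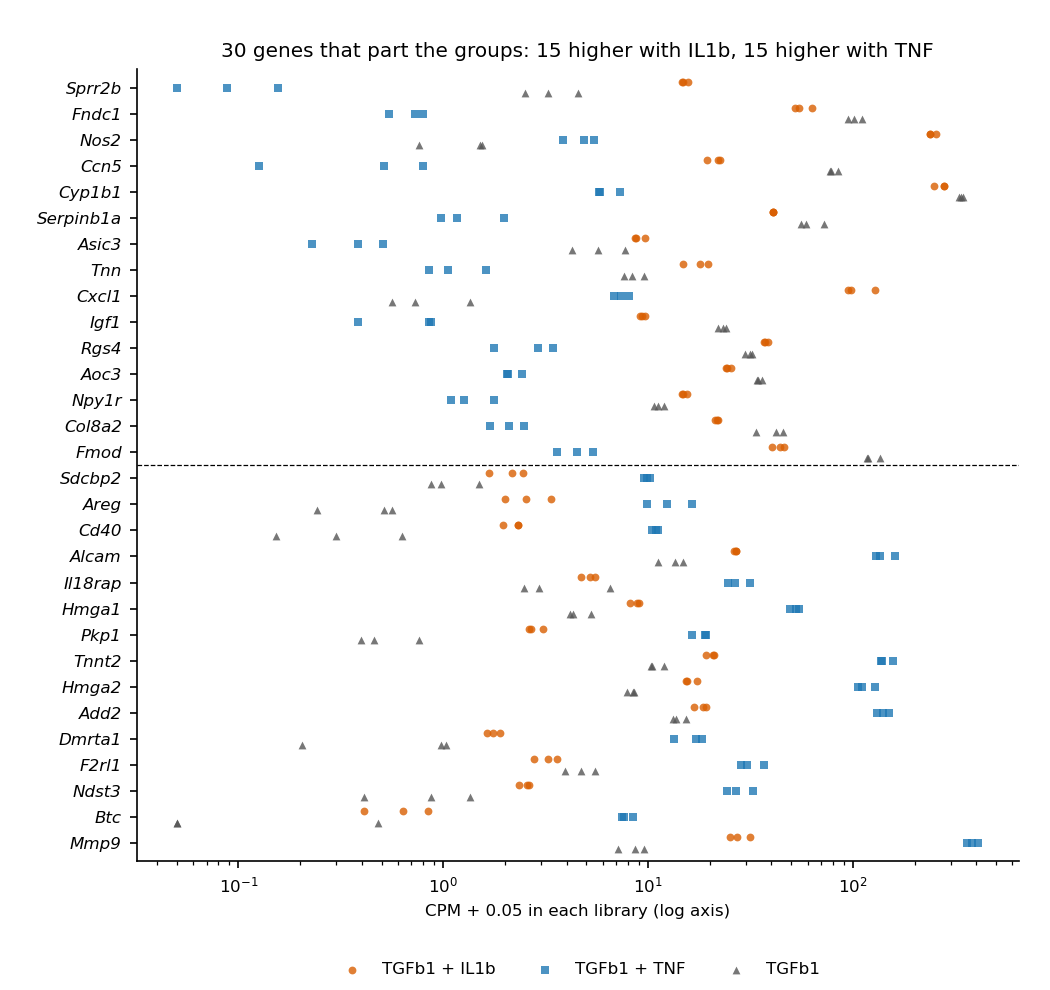
Levels of the 15 genes highest with IL1b (above the dashed line) and the 15 highest with TNF (below it) in each library, in CPM plus 0.05 on a log axis. Every point is 1 of 3 libraries of a group. Above the line the TNF squares lie to the left of the IL1b circles, and for 13 of the 15 genes also to the left of the TGFb1 triangles. Below it the TNF squares lie to the right of both. The genes were picked on these libraries for their difference between IL1b and TNF.

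Il1r1, the receptor of IL1b, did not pass the test between the cytokines, and the TNF receptor genes were slightly higher with IL1b. Il1r1 stood at 52.4, 46.2 and 48.3 CPM with IL1b and 52.5, 48.4 and 48 with TNF, with overlapping groups (-0.019 ± 0.062, adjusted p = 0.84), and its level with TGFb1 alone was 54.5, 45.2 and 45.5. Tnfrsf1a was at 184, 177 and 178 CPM with IL1b and 144, 139 and 144 with TNF (0.34 ± 0.043), and Tnfrsf1b at 112, 111 and 114 and 89.7, 95.8 and 93.3 (0.28 ± 0.051). Each of these TNF receptors was lower with TNF than with TGFb1 alone, with log2 fold changes of -0.51 ± 0.043 and -0.28 ± 0.052. Per kilobase of exon, the levels with IL1b were 69.4 ± 1.43 RPKM for Tnfrsf1a, 29.5 ± 0.483 for Tnfrsf1b and 7.7 ± 0.499 for Il1r1.

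Differences were larger in molecules that tune the receptors. Il1rn, the secreted antagonist of IL1R1, was at 61.9, 54.3 and 55.9 CPM with IL1b and 26.9, 28.4 and 29.9 with TNF (1.01 ± 0.12), and both were below the 206, 164 and 162 of TGFb1 alone. Irak3, an IRAK family member that damps signalling from the receptor, was 2.77-fold higher with IL1b (1.47 ± 0.098). On the other side, Il1rap was higher with TNF (-0.47 ± 0.074), as was Il1rl1, the IL33 receptor (33.8 ± 4.34 CPM with TNF, 11.1 ± 1.8 with IL1b). Il33 itself, an alarmin of the IL1 family, was at 4.39, 3.59 and 4.71 CPM with TNF and 1.4, 1.83 and 1.22 with IL1b. Traf1, an adaptor of TNF receptor 2 and CD40, was at 3.09, 3.77 and 1.94 CPM with TNF, 0.11, 0.36 and 0.467 with IL1b and had 1 count in all 3 TGFb1 libraries together (-3.21 ± 0.50, adjusted p = 4.94e-07). Smaller differences passed the test for Irak2 (0.35), Irak4 (0.45), Tradd (0.43), Ripk1 (0.22) and Traf2 (0.16), higher with IL1b, and for Il1rl2 (-0.28), Map3k7 (-0.13) and Tab2 (-0.14), higher with TNF. Myd88 (0.054), Irak1 (-0.063), Traf6 (-0.15), Fadd (0.035) and Sigirr (-0.44) did not pass. Of the 22 genes on this list, 21 passed the filter on low counts (Il1r2 did not). Of these, 9 were higher with IL1b and 6 with TNF (24.7% and 22.8% of all genes were), with a median log2 fold change of 0.03. The call of Traf2 was lost in 9 of 13 alternative analyses and those of Map3k7 and Tab2 in 1 each, Map3k7 without IL1b replicate 3 (adjusted p = 0.079) and Tab2 without IL1b replicate 2 (adjusted p = 0.0513). The adjusted p of Traf2 ran from 0.019 to 0.253 over these alternatives.

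NF-kB genes were split between the cytokines. Of the 20 genes of the list, all tested, 7 were higher with IL1b and 10 with TNF (median -0.15). Of all genes, 24.7% and 22.8% were. Against TGFb1 alone, IL1b raised 19 and lowered none past the threshold (17.2% of all genes were higher), with Birc2 (-0.16 ± 0.080) not passing. TNF raised 13 and lowered 2 (27.7% of all genes were higher). The largest differences on the list were those of Zc3h12a and Nfkbiz, which IL1b raised and TNF did not change past the threshold. Zc3h12a, which encodes the RNase Regnase-1 (ENSMUSG00000042677 on chromosome 4 from 125118423 to 125127840), was at 100.4, 92 and 95 CPM with IL1b, 15.5, 14.1 and 13.5 with TNF and 15.7, 14.8 and 15.9 with TGFb1 alone (2.74 ± 0.084, adjusted p = 3.74e-32). Nfkbiz, which encodes a nuclear IkB protein that works with NF-kB at part of its target genes (ENSMUSG00000035356 on chromosome 16 from 55811375 to 55838899), was at 172, 159 and 156, 39.8, 38.7 and 38.8 and 44.1, 43.4 and 39.6 CPM in the same order (2.06 ± 0.083). TNF against TGFb1 gave -0.10 ± 0.092 for Zc3h12a and -0.12 ± 0.087 for Nfkbiz. The early response gene Ier3 (1.20 ± 0.085) and the nuclear IkB protein gene Bcl3 (1.04 ± 0.10) were also higher with IL1b. Bcl3 was lower with TNF than with TGFb1 alone (-0.39 ± 0.11), and Ier3 did not pass there (-0.18 ± 0.085).

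Among the 10 members higher with TNF were 3 of the 5 NF-kB subunit genes. Relb, a subunit of the noncanonical pathway, was at 70.0, 67.9 and 69.6 CPM with TNF, 54.3, 49.4 and 51.8 with IL1b and 16.6, 21.7 and 18.6 with TGFb1 alone (-0.42 ± 0.072). Nfkb2 (-0.42), Rela (-0.21), the IkB genes Nfkbie (-0.84) and Nfkbib (-0.59), and the feedback inhibitors Tnip1 (-0.54), Tnip3 (-1.59) and Tnfaip3 (-0.22) were higher with TNF too. So were the target gene Tnfaip2 (-0.48) and Birc3 (-0.44), which encodes cIAP2. Nfkbia, the classical IkBa feedback inhibitor, was at 79, 74.6 and 78.5 CPM with IL1b and 67.2, 55 and 57.6 with TNF (0.37 ± 0.068), and Rel (0.38) and Birc2 (0.30) were likewise higher with IL1b. Nfkb1 (-0.088), Cyld (-0.050) and Ikbke (0.28) did not pass. Tnip3 lay under 1 CPM, and its call was lost in 8 of 12 alternative analyses (adjusted p from 0.00383 to 0.189).

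**Figure D3:**
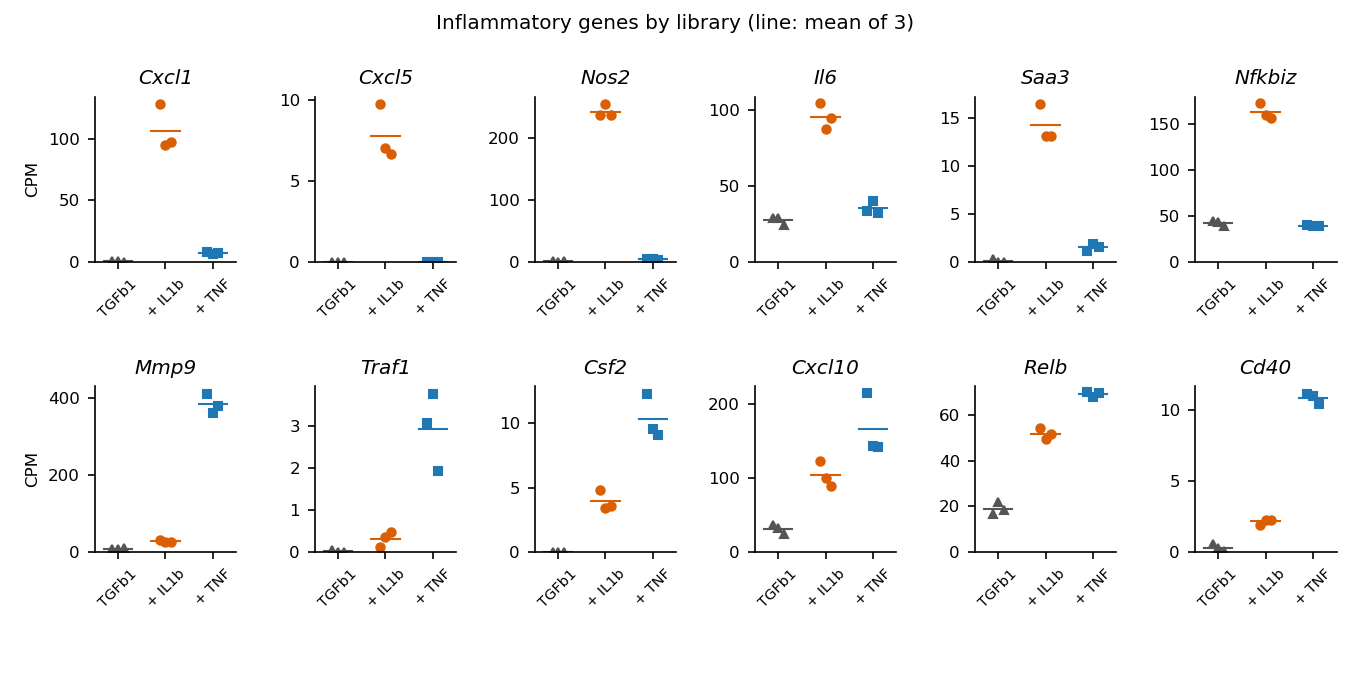
CPM of 12 inflammatory genes in each library of TGFb1, TGFb1 + IL1b and TGFb1 + TNF, on linear axes from 0. Points are libraries and lines means of 3. The upper row holds genes higher with IL1b, in which Nfkbiz with TNF lies at the TGFb1 level, and the lower row genes higher with TNF, all of which also lie above TGFb1 with IL1b.

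Most tested chemokines were higher with IL1b, and Cxcl10 and Ccl5 were higher with TNF. Of 13 CXC chemokines 7 were tested, 5 higher with IL1b and 1 with TNF (median 1.07), where 24.7% and 22.8% of all genes were. Cxcl5, a neutrophil chemokine like Cxcl1, stood at 9.72, 7.02 and 6.68 CPM with IL1b, with 1 count in the 3 TNF libraries together and 0 in the 3 TGFb1 libraries. The ratio of IL1b to TNF counts was 634 (95% exact counting interval 113 to 25060), and IL1b was at least 191-fold higher than TGFb1, taking 3 counts over the group as the floor. Cxcl12, the CXCR4 ligand of stromal cells, was at 442, 465 and 479.9 CPM with IL1b, 182, 206 and 198 with TNF and 748, 778 and 794 with TGFb1 alone (1.24 ± 0.050). Cxcl16 was also higher with IL1b (0.44 ± 0.091); Cxcl9 passed (1.07 ± 0.44) with overlapping groups, and its call was lost in 5 of 13 alternatives (adjusted p up to 0.179). Cxcl10, a CXCR3 ligand like Cxcl9, was at 214, 143 and 142 CPM with TNF and 122, 99.5 and 89.5 with IL1b (-0.68 ± 0.17, adjusted p = 0.00355). The groups did not overlap, and the call was lost in 1 of 13 alternatives (adjusted p from 0.00142 to 0.0699 over the alternatives, the highest with only the 6 libraries fitted).

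Among CC and CX3C chemokines, 9 of 13 were tested, 5 were higher with IL1b and 1 with TNF (median 1.29). Of all genes, 24.7% and 22.8% were. The monocyte chemokine Ccl2 was at 335, 282 and 292 CPM with IL1b, 133, 122 and 117 with TNF and 43.7, 36.7 and 39 with TGFb1 alone (1.29 ± 0.083), and its neighbour Ccl7 at 320.4, 275 and 282, 94.8, 101 and 97.6 and 77.2, 62 and 55.1 (1.58 ± 0.11). Ccl8 and Ccl20 were higher with IL1b at low levels, 2.14 ± 0.491 and 0.652 ± 0.12 CPM against 0.595 ± 0.253 and 0.0622 ± 0.0773. Ccl5 was at 31.6, 28.2 and 28.5 CPM with TNF and 17.7, 16.8 and 15.1 with IL1b (-0.83 ± 0.18). Cx3cl1 was higher with IL1b (0.28), and Ccl9 (0.34) and Ccl25 (-0.15) did not pass.

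Cytokines of the IL6 family and growth factors of blood cells were divided. Il6, the cytokine that drives the acute phase response, was at 105, 87.7 and 94.6 CPM with IL1b, 33.4, 40.4 and 32.3 with TNF and 29.1, 29.2 and 24.6 with TGFb1 alone (1.44 ± 0.084, adjusted p = 7.46e-20). Lif, of the same family, was at 186 ± 9.16 CPM with IL1b and 121 ± 4.25 with TNF (0.62 ± 0.056). Csf2, which encodes GM-CSF, was at 12.3, 9.6 and 9.09 CPM with TNF, 4.86, 3.42 and 3.59 with IL1b and had 0 counts in all 3 TGFb1 libraries (-1.38 ± 0.24). It was at least 253-fold higher with TNF and at least 96.7-fold higher with IL1b than TGFb1, against a floor of 3 counts over the group. Kitl, stem cell factor, was at 16.1, 17.1 and 16.3 CPM with TNF and 5.67, 6.01 and 6.43 with IL1b (-1.45 ± 0.13). Il34, a ligand of the CSF1 receptor, was at 10.4 ± 0.535 CPM with TNF and 5.8 ± 0.577 with IL1b, and Il11, a fibrogenic IL6 family member, at 21.8 ± 1.3 and 13.8 ± 2.76. Of the 10 tested members of the 12, 3 were higher with IL1b and 6 with TNF (median -0.44), where 24.7% and 22.8% of all genes were. Csf3 was not tested. Tslp, an epithelial-type alarmin, was at 6.62, 5.37 and 5.55 CPM with TNF and 2.35, 2.05 and 1.98 with IL1b, whereas Il1a was at 2.06, 1.51 and 1.44 with IL1b and 0.0743, 0.0356 and 0.152 with TNF and had 0 counts with TGFb1 alone. Among these other cytokines and TNF family ligands, 3 of 12 tested were higher with IL1b and 3 with TNF, shares near the 24.7% and 22.8% of all genes.

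All acute phase and complement genes that passed were higher with IL1b. Of 20 listed, 16 passed the filter on low counts. Of these, 14 were higher with IL1b and none with TNF. The difference was 2-fold or more in 12 of them, and the median was 1.98, against 0.013 for all genes. Saa3, serum amyloid A3 (ENSMUSG00000040026 on chromosome 7 from 46711998 to 46715700), was at 16.4, 13.2 and 13.2 CPM with IL1b, 1.15, 1.92 and 1.64 with TNF and 0.346, 0.0714 and 0.0515 with TGFb1 alone (3.18 ± 0.25). Lcn2, a siderophore-binding lipocalin, was at 1.8, 2.3 and 1.83 CPM with IL1b and held 3 counts in the TNF libraries together and 0 with TGFb1 alone. The ratio of IL1b to TNF was 53.7 (95% exact counting interval 18.1 to 263). Haptoglobin (Hp), the metalloreductase Steap4 and the endotoxin-binding protein gene Lbp were 10.8-, 13- and 8.56-fold higher with IL1b, at 6.67 ± 0.983, 5.03 ± 0.218 and 4.35 ± 0.381 CPM. C3, the central complement protein, was at 700.0, 711 and 682 CPM with IL1b and 304, 284 and 308 with TNF (1.23 ± 0.049). C4b stood at 13.9, 13.2 and 11.4 and 2.12, 1.6 and 1.33 CPM (2.93 ± 0.12). Both were named after their values were seen. Cfb and C2, which share exons in the annotation with a readthrough gene, did not pass and lay under 1 CPM.

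Nitric oxide and prostaglandin genes did not follow Nos2 as a group: of 19 tested, 7 were higher with IL1b and 6 with TNF. Of all genes, 24.7% and 22.8% were. The arginine importer Slc7a2 was higher with IL1b, at 172, 161 and 173 CPM against 75.8, 78.7 and 74.1 with TNF and 40.3, 42.1 and 40.2 with TGFb1 alone (1.15 ± 0.061). Ass1, which makes the arginine precursor argininosuccinate, was higher with TNF, at 286, 320.1 and 301 CPM against 130.4, 127 and 143 with IL1b (-1.18 ± 0.060). Gch1, which starts synthesis of the nitric oxide synthase cofactor tetrahydrobiopterin, was also higher with TNF, at 28.5, 29.2 and 27.3 CPM against 11.3, 11.6 and 12.2 (-1.28 ± 0.14). Ptgs2, the inducible cyclooxygenase, was at 406, 367 and 378 CPM with IL1b, 347, 295 and 256 with TNF and 123, 105 and 107 with TGFb1 alone (0.36 ± 0.086, adjusted p = 0.00196). Its call was lost in 1 of 13 alternatives (adjusted p from 1.11e-10 to 0.0679 over the alternatives, the highest with only the 6 libraries fitted). Ptges (0.091), a prostaglandin E synthase, did not pass.

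Adhesion and antigen presentation genes leaned towards TNF. Of 10 tested adhesion genes (14 listed), 7 were higher with TNF and 3 with IL1b (median -0.48), where 22.8% and 24.7% of all genes were. The count higher with IL1b fell to 1 without TNF replicate 1 and to 1 without TNF replicate 3. Vcam1, the ligand of integrin VLA-4, was at 231, 239 and 239 CPM with TNF, 182, 184 and 181 with IL1b and 159, 166 and 161 with TGFb1 alone (-0.37 ± 0.043). Cd44, the hyaluronan receptor (-0.58 ± 0.041), Jam2 (-0.69 ± 0.088) and L1cam (-1.22 ± 0.16) were higher with TNF and Ncam1 (0.55 ± 0.042) with IL1b. Icam1 had only 22 counts in the TNF libraries and 3 in the IL1b libraries, a ratio of 7.47 (95% exact counting interval 2.24 to 39.0). Its call was lost in 2 of 11 alternatives, without IL1b replicate 2 and without TNF replicate 3 (adjusted p up to 0.0887). In antigen presentation, 10 of 20 tested genes were higher with TNF and 3 with IL1b (median -0.22). The class I heavy chain gene H2-D1 was at 139, 123 and 118 CPM with TNF and 79.7, 81 and 87.1 with IL1b (-0.62 ± 0.057). The costimulatory gene Cd80 was at 12.4, 12.3 and 11.4 and 6.55, 6.94 and 7.54 CPM in the same order, and Cd274, which encodes PD-L1, at 5.76, 3.88 and 5.55 and 3.24, 2.48 and 2.37. Tap2, a peptide transporter subunit, was higher with IL1b (0.58 ± 0.13) and its partner Tap1 did not pass (-0.042 ± 0.24). Class I genes have close copies, and the sources used here do not say how shared reads were counted.

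Most interferon-stimulated genes did not pass the test between the cytokines. Of 37 tested, 6 were higher with TNF, 2 with IL1b and 29 did not pass. Thus 21.6% of the list passed, against 47.6% of all genes. The median size of the difference was 0.27, against 0.32 for all genes, so the lower share does not show smaller differences alone. Against TGFb1 alone, 31 of them were higher with IL1b (17.2% of all genes were) and 31 with TNF (27.7%). The viral RNA sensor Ifih1 was at 90.9, 67.6 and 66 CPM with TNF, 36.3, 36 and 34 with IL1b and 19.5, 17.8 and 15.5 with TGFb1 alone (-1.08 ± 0.15). Ifi44 (-1.04 ± 0.25), Oasl1 (-0.94 ± 0.15) and Oas3 (-1.79 ± 0.47) were higher with TNF as well, and Ifit1 (-0.27 ± 0.27) and Irf1 (-0.13 ± 0.074) did not pass. The replicates of this list were uneven: TNF replicate 1 was the highest TNF library for 34 of the 37 genes (33.8% of all genes tested) and IL1b replicate 1 the highest IL1b library for 30 (36.4%). Ifi44, at 45.8, 27.2 and 27.1 CPM in the TNF libraries, is an example. Without TNF replicate 1 the counts became 5 higher with IL1b and 4 with TNF, and the list's median moved from -0.13 to 0.08. Without IL1b replicate 1 they became 1 and 7, with a median of -0.17. With limma voom 4 were higher with IL1b and 11 with TNF. With only the compared groups in the fit they were 5 and 7. The count higher with TNF was 9 with RLE factors, at a filter of 1 CPM, without mitochondrial and rRNA genes, and without TNF replicate 2.

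Collagen and matrix genes, which TGFb1 is known to raise, were higher with IL1b than with TNF. Of 26 tested genes (27 listed), 22 were higher with IL1b and 3 with TNF (median 0.97), where 24.7% and 22.8% of all genes were. Against TGFb1 alone, TNF lowered 21 of them (28.8% of all genes were lower), with a median of -1.18. IL1b lowered 14 (17.4%) with a median of -0.11. Col1a1, encoding the main chain of collagen I (ENSMUSG00000001506 on chromosome 11 from 94936224 to 94953042, GRCm38), was at 25320, 25890 and 24740 CPM with IL1b, 11450, 10860 and 11570 with TNF and 27110, 27270 and 28750 with TGFb1 alone (1.17 ± 0.038, adjusted p = 8.24e-30). Col3a1, type III collagen, was at 17040 ± 371 CPM with IL1b and 4239 ± 53.6 with TNF (2.01 ± 0.038), against 16480 ± 432 with TGFb1, from which IL1b did not differ past the threshold (0.048 ± 0.037). In bulk RNA, fewer cells of a type and less RNA per cell cannot be told apart. The fibril-associated collagens Col12a1 (2.46 ± 0.041) and Col14a1 (2.18 ± 0.054), the minor fibrillar chain Col11a1 (2.12 ± 0.062) and Col6a2 (1.29 ± 0.054) showed the same order, as did the matricellular gene Postn, at 7077 ± 61.5 and 3564 ± 152 CPM (0.99 ± 0.035). The exceptions, named after their values were seen, were tenascin C (Tnc, -1.04 ± 0.076), Col8a1 (-0.73 ± 0.054) and Col5a3 (-0.31 ± 0.041), all higher with TNF. Tnc was at 7772, 6571 and 6930 CPM with TNF, 3656, 3399 and 3308 with IL1b and 2307, 2019 and 2045 with TGFb1 alone. Col15a1 (0.068 ± 0.070) did not pass.

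**Figure D4:**
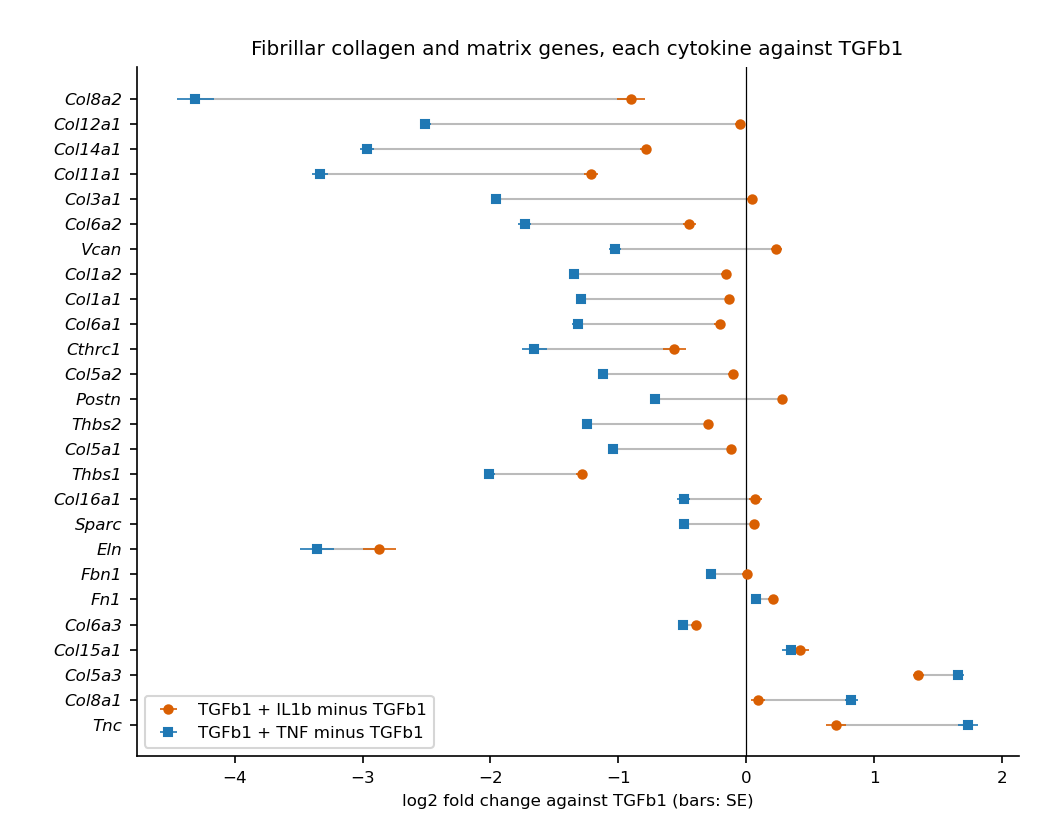
log2 fold change of each cytokine group against the shared TGFb1 libraries for the 26 tested matrix genes, ordered by the difference between the cytokines. Bars are SE and grey lines join the values of a gene. Most TNF squares lie far to the left of 0 and of their IL1b circles, while for Tnc, Col8a1 and Col5a3, at the bottom, the TNF square lies furthest right.

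Enzymes that modify and crosslink collagen were in the same order. Of 19 tested genes, 16 were higher with IL1b and 2 with TNF (median 0.49), where 24.7% and 22.8% of all genes were. The crosslinker Lox was at 4238, 4520 and 4664 CPM with IL1b and 2059, 2465 and 2368 with TNF (0.96 ± 0.053). Also higher with IL1b were the prolyl hydroxylase subunits P4ha2 (0.94 ± 0.042) and P4ha3 (1.68 ± 0.072), the lysyl hydroxylase Plod2 (0.80 ± 0.040) and the procollagen enhancer Pcolce (1.02 ± 0.038). In basement membrane genes 13 of 19 were higher with IL1b and 2 with TNF (median 0.45). The laminin chain Lama4 was at 562 ± 13.7 and 220.1 ± 3.7 CPM (1.35 ± 0.041), Lamb3 was higher with TNF (-1.04 ± 0.29), and Lamc1 (-0.045) did not pass.

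Contractile genes of the myofibroblast state were higher with IL1b than with TNF, and against TGFb1 alone IL1b lowered 15 and TNF 18 of the 22 tested (17.4% and 28.8% of all genes were lower). Acta2, smooth muscle actin, was at 1750, 1820 and 1817 CPM with IL1b, 818, 939.9 and 946 with TNF and 2383, 2354 and 2437 with TGFb1 alone (0.99 ± 0.049). Larger differences were seen for the myosin light chain Myl9 (161, 167 and 155 and 29.9, 37.9 and 37.4 CPM, 2.20 ± 0.068), for Lmod1, a leiomodin of smooth muscle thin filaments (2.85 ± 0.12), and for calponin Cnn1 (1.46 ± 0.067). The collagen-binding integrin gene Itga11 was at 97.1, 100.3 and 96.6 and 12.9, 12.9 and 13.7 CPM (2.90 ± 0.056). Of 22 tested, 14 were higher with IL1b, 4 with TNF and 4 did not pass (median 0.57). Both cytokines lowered Acta2 against TGFb1, with log2 fold changes of -0.41 ± 0.049 with IL1b and -1.41 ± 0.050 with TNF. Tagln is overlapped on the opposite strand over 62.4% of its exon bases, and without the strand setting its reads and those of its partner cannot be told apart.

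Receptors and targets of TGFb were higher with IL1b than with TNF in most cases. The receptor Tgfbr2 was at 226, 238 and 233 CPM with IL1b, 102, 96.9 and 103 with TNF and 504, 496 and 521 with TGFb1 alone (1.21 ± 0.043), and the coreceptor Tgfbr3 at 107, 104 and 105, 23.3, 25.9 and 28.6 and 73.9, 64.8 and 65.9 (2.02 ± 0.069). Tgfb2 (1.39 ± 0.063), the inhibitory SMAD gene Smad6 (1.11 ± 0.12) and the matrix target Tgfbi (1.77 ± 0.056) were higher with IL1b. Inhba, which encodes the activin A subunit, was higher with TNF, at 1449, 1356 and 1319 CPM against 818, 781 and 794 (-0.79 ± 0.050). Smad7 (-0.025) and Tgfbr1 (-0.036) did not pass. Over the 20 tested, 14 were higher with IL1b and 4 with TNF (median 0.38), where 24.7% and 22.8% of all genes were. Against TGFb1 alone, IL1b raised 2 and lowered 11 of them (17.2% of all genes were higher and 17.4% lower). TNF raised 3 and lowered 14 (27.7% and 28.8%). In the ID and BMP list 9 of 15 were higher with IL1b, including Id3 (1.91 ± 0.095) and the activin-binding protein gene Fst (106, 108 and 111 and 22.7, 25.1 and 25.7 CPM, 2.15 ± 0.059), and 3 with TNF. In the Wnt list 12 of 23 were higher with IL1b and 6 with TNF, where 24.7% and 22.8% of all genes were. The feedback gene Axin2 was at 4.82, 4.68 and 4.28 CPM with IL1b and 0.818, 1.6 and 0.912 with TNF (2.03 ± 0.18), and the Wnt amplifier Rspo3 at 34.4, 31.5 and 35.3 and 5.95, 4.87 and 5.17 (2.66 ± 0.10).

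Matrix-cutting proteases were divided between the cytokines. Of 17 tested metalloproteinases and inhibitors, 11 were higher with IL1b and 4 with TNF, where 24.7% and 22.8% of all genes were. Beside Mmp9, the TNF group held the collagenase Mmp13, at 55.4, 44.1 and 40.5 CPM with TNF, 21.3, 16.3 and 18.5 with IL1b and 51.1, 45.6 and 40.4 with TGFb1 alone (-1.32 ± 0.13), and the stromelysin Mmp10, at 10.4, 7.79 and 6.65, 3.31, 3.96 and 3.13 and 9.02, 6.46 and 6.28 (-1.26 ± 0.22). Neither gene passed the test of TNF against TGFb1 (0.025 ± 0.12 and 0.19 ± 0.20), and both were lower with IL1b (-1.29 ± 0.13 and -1.07 ± 0.23). Mmp3, also a stromelysin, went the other way, at 45.9, 38.1 and 34.8 CPM with IL1b, 19.6, 13.9 and 17.4 with TNF and 77.2, 69 and 61.6 with TGFb1 alone (1.23 ± 0.14). Adamts5 and Adamts9, which cleave aggrecan and versican, were 4.34- and 7.31-fold higher with IL1b, and 9 of 13 ADAMTS genes were higher with IL1b and 3 with TNF. Protease inhibitors of the serpin families included Serpina3g, at 32.2, 27.6 and 31 CPM with IL1b and 4.05, 2.03 and 3.8 with TNF (3.20 ± 0.13), and Serpinb9 (1.29 ± 0.066). Both families have close copies, and 11 of 16 genes of that list were higher with IL1b and 3 with TNF.

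Growth factor genes were divided between the cytokines. Fgf7, keratinocyte growth factor (ENSMUSG00000027208 on chromosome 2 from 126034658 to 126091185), was at 247, 236 and 239.5 CPM with IL1b, 43.8, 47.1 and 44.6 with TNF and 56, 46.3 and 42.8 with TGFb1 alone (2.41 ± 0.072), and the lymphangiogenic factor Vegfd at 23.7, 23.7 and 21.1 and 5.28, 6.12 and 4.64 CPM (2.09 ± 0.098). The IGF-binding proteins went opposite ways: Igfbp3 was at 85.5, 84.2 and 83.2 CPM with IL1b and 20.7, 24 and 20.2 with TNF (1.96 ± 0.054), and Igfbp5 at 231, 182 and 181 and 749, 679.9 and 711 (-1.85 ± 0.11). Of 31 tested growth factors and receptors, 13 were higher with IL1b and 10 with TNF, where 24.7% and 22.8% of all genes were. Ligand genes higher with TNF, all but Areg named after their values were seen, included Areg, Hbegf (-1.66 ± 0.050) and Ereg (-0.80 ± 0.076) of the EGF family, Pdgfa (-1.38 ± 0.052) and Pdgfb (-1.55 ± 0.084), and Vegfc (-1.42 ± 0.077). Hbegf was at 652, 611 and 586 CPM with TNF, 203, 192 and 189.6 with IL1b and 83.3, 90.3 and 97.4 with TGFb1 alone. The PDGF receptor genes Pdgfra (1.46 ± 0.045) and Pdgfrb (1.11 ± 0.041), named in the same way, were higher with IL1b, which itself lay below TGFb1 alone (211 ± 5.81 and 509.9 ± 19 CPM against 424 ± 26.4 and 969.6 ± 30.6).

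Most cell cycle genes were higher with TNF, by small amounts. Of 28 tested, 22 were higher with TNF, 1 with IL1b (Ccne1, 0.53 ± 0.11, named after its value was seen) and 5 did not pass (median -0.33). Of all genes, 22.8% were higher with TNF and 24.7% with IL1b. The helicase subunit Mcm2 was at 199.7, 203 and 209 CPM with TNF and 138, 135 and 132 with IL1b (-0.60 ± 0.047), the mitotic kinase Aurka at 121, 128 and 125 and 85.4, 81.8 and 82.3 (-0.58 ± 0.055), and Cenpe at 173, 164 and 178 and 121, 111 and 110.5 (-0.59 ± 0.058). The largest difference was that of Ccnb1 (-0.99 ± 0.13). In a list of p53 targets and apoptosis genes, 7 of 22 were higher with TNF and 5 with IL1b, shares near the 22.8% and 24.7% of all genes. The count higher with TNF was 11 with DESeq2, and the count higher with IL1b was 3 without IL1b replicate 2 or without TNF replicate 1. Bcl2l1, which encodes BCL-XL, was at 88.7, 76.2 and 79 CPM with TNF and 39.1, 38 and 36.2 with IL1b (-1.11 ± 0.068), and the caspase 8 regulator Cflar was higher with TNF (-0.57 ± 0.054). The death receptor Fas was at 26.8, 28.9 and 26.4 CPM with IL1b and 7.84, 11.2 and 9.66 with TNF (1.51 ± 0.11).

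Glycolysis and sterol genes that passed were all higher with IL1b than with TNF, where 24.7% of all genes were. In glycolysis and hypoxia genes 15 of 22 were higher with IL1b and none with TNF (median 0.54). Against TGFb1 alone, IL1b raised 7 and lowered 4 of them (17.2% of all genes were higher and 17.4% lower). TNF raised 4 and lowered 15 (27.7% and 28.8%). Pfkfb3, an activator of glycolysis, was at 56.6, 63.9 and 70.4 CPM with IL1b, 13.9, 17 and 17.2 with TNF and 78.7, 80.7 and 79.2 with TGFb1 alone (1.99 ± 0.083). The HIF target Egln3 was at 48.1, 54.4 and 53.9 CPM with IL1b and 13.1, 15.6 and 17.4 with TNF, and the vasodilator gene Adm at 3.53, 6.22 and 5.5 and 0.669, 0.249 and 0.532. In sterol and fatty acid synthesis 16 of 24 were higher with IL1b and none with TNF (median 0.18). The median size of the difference was 0.22, against 0.32 for all genes. Against TGFb1 alone, IL1b raised 1 and lowered 8 of the 24 (17.4% of all genes were lower). TNF raised 1 and lowered 16 (28.8%). The largest differences between the cytokines were in the cholesterol exporter Abca1 (1.62 ± 0.055), which removes sterol from cells, and the desaturase Scd2 (0.88 ± 0.038). Among antioxidant genes, the extracellular superoxide dismutase Sod3 was at 278, 242 and 232 CPM with IL1b and 45, 35.7 and 33.3 with TNF (2.72 ± 0.16), and mitochondrial Sod2 at 132, 120.0 and 121 and 55.6, 56.2 and 57.9 (1.14 ± 0.055). Txnrd1, thioredoxin reductase, went the other way, at 452, 441 and 446 CPM with IL1b and 716, 767 and 753 with TNF (-0.74 ± 0.041). Of 20 tested genes of this list, 11 were higher with IL1b and 5 with TNF. The count higher with TNF was 3 without IL1b replicate 3, without TNF replicate 2 or without TNF replicate 3.

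Transcription factor genes of the early response were split. Of 23 tested, 12 were higher with IL1b and 7 with TNF, where 24.7% and 22.8% of all genes were. The AP-1 subunit genes Fos (78.3, 64.3 and 54.9 CPM with IL1b, 28.2, 23.2 and 23.2 with TNF, 163, 112 and 112 with TGFb1 alone) and Fosl2 (1.06 ± 0.047), the phosphatase Dusp1 (1.25 ± 0.12) and the nuclear receptors Nr4a1 (2.08 ± 0.24) and Nr4a3 (2.93 ± 0.30) were higher with IL1b. The stress factor gene Atf3 was higher with TNF, at 212, 204 and 192 CPM against 111, 99.7 and 94.5 (-0.99 ± 0.11). In this list too replicate 1 stood highest: TNF replicate 1 was the highest TNF library for 22 of 23 genes and IL1b replicate 1 the highest IL1b library for 19. Without TNF replicate 1 the counts were 12 higher with IL1b and 6 with TNF (median 0.21, against 0.16 with all libraries). Without IL1b replicate 1 they were 11 and 7 (median 0.19). The CCAAT-binding factor gene Cebpd was at 28.3, 25.9 and 24.8 CPM with IL1b, 5.32, 5.33 and 5.55 with TNF and 10.0, 9.17 and 8.86 with TGFb1 alone (2.29 ± 0.12). Cebpb was at 158, 129.6 and 101, 76.2, 61.6 and 59.3 and 44.2, 37.6 and 35.4 CPM in the same order (0.98 ± 0.17). Both are known partners of NF-kB at acute phase genes.

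The genes of the surface proteins that define these cells were lower with TNF. Ly6a, which encodes Sca-1, was at 77.5, 75.2 and 74.9 CPM with IL1b, 29.5, 23.6 and 27.3 with TNF and 97.5, 83.1 and 79.3 with TGFb1 alone (1.5 ± 0.075). Ly6c1, which has a close copy beside it, was at 19.1 ± 1.06, 6.02 ± 0.518 and 24 ± 3.39 (1.67 ± 0.11). Cd34, a surface sialomucin of adventitial cells, went the other way, at 39.1, 37.7 and 37.5 CPM with TNF and 12.5, 10.5 and 10.6 with IL1b (-1.77 ± 0.11), as did the hyaluronan synthase Has1 (-1.39 ± 0.21). Of 18 tested adventitial genes 10 were higher with IL1b and 6 with TNF. Of 16 alveolar and lipid-handling genes 8 were higher with IL1b and 1 with TNF. Of all genes, 24.7% and 22.8% were. Mfap4, a microfibril protein, was at 2.87, 2.34 and 2.84 CPM with IL1b, 0.26, 0.178 and 0.228 with TNF and 17.3, 13.2 and 14.2 with TGFb1 alone.

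**Figure D5:**
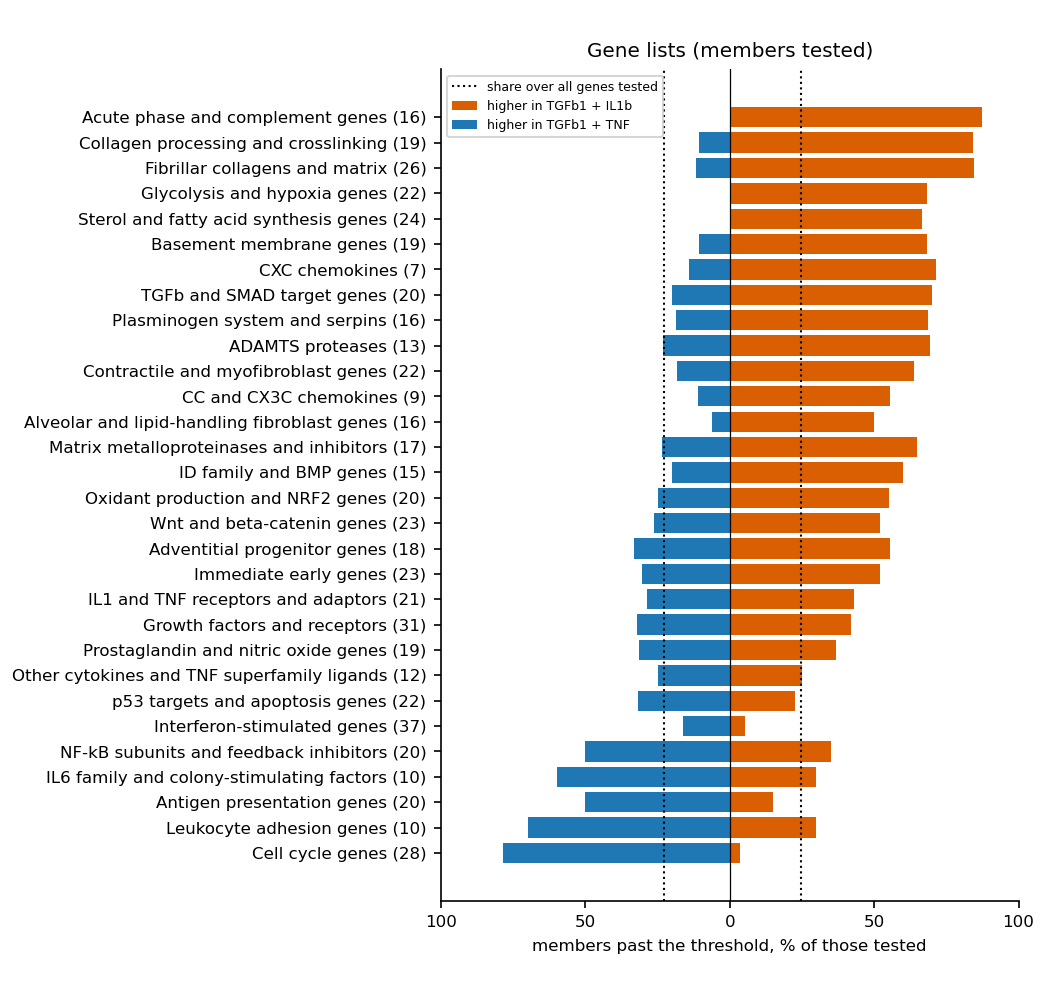
Share of the tested members of each of the 30 gene lists that passed the threshold, in percent. The lists were chosen with earlier results of these data known. Bars to the right are members higher with TGFb1 + IL1b, bars to the left members higher with TGFb1 + TNF, and the number tested stands in brackets. Dotted lines mark the shares over all genes tested, 24.7% and 22.8%; acute phase, collagen processing and matrix lists lie furthest to the right and the cell cycle list furthest to the left.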

How the data were processed

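The authors deposited 1 table of raw read counts per gene and library, and per the labels' protocols a stranded kit for total RNA was used. The sources used here give no aligner, counter, strand setting or rule for reads shared between copies; GRCm38 and GRCh38 are named in the submitters' processing notes without a role, and GENCODE M21 (GRCm38) holds 52489 of the 52636 gene IDs. The 147 other IDs have no name here and hold 0.00736% of the counts. The 21 deposited single tables equal their column. The depth of the 21 libraries ran from 19796379 to 29276382 counts. edgeR 4.0.16 in R 4.3.3 was fitted to all 21 libraries with 1 coefficient per group, TMM factors and filterByExpr, which kept 16197 genes; adjusted p-values are Benjamini-Hochberg over these, and SE is the size of the log2 fold change divided by the square root of F. CPM and RPKM were computed from the counts with the TMM-scaled library sizes and the exon length of the annotation.

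Genes named are the 15 highest and 15 lowest log2 fold changes past the threshold at 4 CPM or more with no overlap of the groups and no predicted or clone name, in each of the 30 lists up to 6 members that passed with the largest change and up to 2 that did not, all members of the receptor and NF-kB lists, and 30 fixed genes. The members and lists were chosen with earlier results of these data known. Replicate numbers follow the order of the deposit and were not used to pair libraries. Tested on simulated counts for 16197 genes, the test of TGFb1 + IL1b against TGFb1 + TNF found 54 of 80 genes changed 1.5-fold, 42 of 60 changed 2-fold and 55 of 60 changed 4-fold, with 7 calls among unchanged genes. Only these genes were changed, in random directions, whereas 47.6% of all genes were called in the data. The simulated rates therefore do not carry over to the data. Alternatives were DESeq2 1.42.0, limma 3.58.1 voom, RLE factors, other filters, omission of mitochondrial and rRNA genes, only the compared groups, each replicate left out, and TGFb1 + DMSO as the control. Counting intervals are exact and cover counting error only.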

Additional observations from a re-analysis of the deposited data

How the results depend on the processing

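Over all alternatives the count of genes called between the cytokines (7706) stayed from 7376 to 7832, and with each of the 6 libraries left out from 6858 to 7182. Those higher with IL1b (4008) ranged from 3775 to 3998 over the alternatives and from 3581 to 3721 with a library left out. Those higher with TNF (3698) ranged from 3504 to 3954 and from 3277 to 3461, so which side was larger was not stable. Those at least 2-fold higher with IL1b (1116) ranged from 967 to 1133 and from 1046 to 1109, and those at least 2-fold higher with TNF (359) from 315 to 380 and from 318 to 362. The counts against TGFb1 ranged from 5247 to 6366 for IL1b (4718 to 5060 with a library left out) and from 8463 to 9233 for TNF (8602 to 8774), TGFb1 + DMSO as the control included. Over 215 named genes and 13 alternatives, 2748 values stayed on their side of the threshold, 31 lost the call and 8 gained one. None that was called in either analysis changed sign. Direction was not compared for values called in neither, and genes without an adjusted p in an alternative gave no value there. Many of these genes were named for large changes past the threshold in the same data. Their calls were therefore likely to be kept, and the count does not speak for genes in general. Tnip3 and Icam1 had few counts per library, so their values are imprecise. No paired analysis was possible because the replicate numbers follow the order of the deposit and no label ties libraries across groups.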

Other observations

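Ligands of the TNF superfamily other than TNF itself were also measured. Tnfsf13b, which encodes the B cell factor BAFF, was at 21.9, 22.2 and 20.2 CPM with IL1b, 10.8, 10.7 and 12.4 with TNF and 11.8, 14 and 11.1 with TGFb1 alone (0.93 ± 0.11, edgeR adjusted p = 2.74e-10). Tnfsf11, which encodes the osteoclast factor RANKL, was above TGFb1 with both cytokines (2.0 ± 0.51 with IL1b, 2.61 ± 0.50 with TNF) and did not pass between them (-0.61 ± 0.43). Tnfsf9 did not pass in either comparison with TGFb1 (6.89 ± 0.583 CPM with IL1b, 6.73 ± 0.424 with TNF, 7.35 ± 0.639 with TGFb1 alone). Wnt5a, a noncanonical Wnt ligand, stood at 41.8, 46 and 41.7 CPM with IL1b, 40.9, 43.2 and 42 with TNF and 42.3, 42.1 and 43.6 with TGFb1 alone, with log2 fold changes of 0.018 ± 0.065 and -0.018 ± 0.066 against TGFb1, while the secreted Wnt inhibitor Notum was at 1.55, 1.04 and 1.44 and 0.149, 0.213 and 0.152 CPM (2.93 ± 0.57). Bmp6 was at 10.1, 11.5 and 11.7 CPM with IL1b, 3.64, 5.8 and 5.09 with TNF and 10.6, 14.2 and 13.2 with TGFb1 alone, so that TNF lowered it (-1.38 ± 0.14) and IL1b did not change it past the threshold (-0.19 ± 0.13).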
